A study of Mus musculus with 8 samples.

Results

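The IgLON genes Opcml, Ntm, Lsamp and Negr1 were followed in a time course of induced 5-hydroxymethylcytosine (5hmC) in mouse embryonic stem cells. They are 4 of the 49993 genes of the gene table used here, of which 34557 held at least 1 CpG call, and their spans held 1761 of the 1849087 calls. Opcml was taken because its 12 h level was among the lowest against its libraries in an earlier look at these data, and the other three because they belong to its family. The comparison asks whether the relatives lay as low as Opcml. The cells lack TET1, TET2 and TET3 and all carry a PiggyBAC transposon from which doxycycline induces the catalytic domain of mouse TET3, linked to an mCherry reporter. All were grown in medium with 50 µg/ml ascorbate. Untreated cells (0 h) gave 3 libraries called A, B and C. Cells given 1 µM doxycycline gave 2 libraries at 6 h (A, B) and 3 at 12 h (A, B, C). The transposon expresses the catalytic domain alone, in a single knockout line, and the labels name no separate cultures, so a p-value here reflects the spread among libraries, and that spread may be technical. No RNA was measured, so the labelled cell type could not be checked against marker genes.

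IgLON proteins are small cell adhesion molecules of the immunoglobulin superfamily. Each has immunoglobulin-like domains and is held in the outer leaflet of the cell membrane by a glycosylphosphatidylinositol anchor. They bind one another in pairs on neurons and take part in neurite outgrowth and synapse formation. Opcml, Ntm, Lsamp and Negr1 are very long genes, nearly all of it intron. TET enzymes oxidise 5-methylcytosine to 5hmC, and in APOBEC-coupled epigenetic sequencing 5hmC is shielded by glucosylation while cytosine and 5-methylcytosine are deaminated. An undeaminated call at a CpG is therefore counted as 5hmC, with the assay's background included.

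Over the whole libraries, the share of undeaminated CpG calls was 0.899 to 1.26% at 0 h, 6.27 to 6.57% at 6 h and 22.3 to 26.8% at 12 h, with 75023 to 485941 calls a library. Since this share differs with the number of CpGs on a read, and at 12 h is lowest on reads with 11 or more, each gene was set against an expected level, which is what its library showed on reads with as many CpGs (7 classes). The deviation is the gene's level minus that expected level, in percentage points. A gene was tested when no library held fewer than 10 calls in it, which 346 genes met. Opcml, Ntm and Lsamp were among them, and Negr1 was not, since it held 6 calls in 6 h library A.

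All 4 are annotated as protein-coding on GRCm38, and the gene table gives no exons. Opcml, the opioid-binding protein and cell adhesion molecule, lies on chromosome 9 from 27790716 to 28925410, with 434 calls on 275 reads over the 8 libraries. Ntm, which encodes neurotrimin, follows it after 69338 bases at 28994749 to 29963269 on the other strand, so that the 3′ ends of the pair face each other, and held 584 calls on 314 reads. Lsamp, the limbic system-associated membrane protein, lies on chromosome 16 from 39984254 to 42181679 with 516 calls on 321 reads. Negr1, the neuronal growth regulator, lies on chromosome 3 from 156561790 to 157316464 with 227 calls on 138 reads. Calls numbered 38.2 per 100 kb in Opcml, 60.3 in Ntm, 23.5 in Lsamp and 30.1 in Negr1, against a median of 118.5 over the 346 genes tested. The genes tested had a median length of 349091 bases. Since each needed at least 10 calls in every library, the short ones among them had to be densely called. Most CpGs were seen once: of 426 called positions in Opcml, 8 were called in 2 or more libraries. None of the 4 spans held a 10 kb window with at least 200 calls over the 8 libraries, the limit used here for high-copy sequence.

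The windows around the annotated start sites are printed because they show how little of the data comes from the gene starts. Each runs from 250 bases before to 50 bases after a start site (RefSeq, GRCm38.p6), 5′ to 3′ on the strand of the gene, with CpGs in capitals. The Opcml window is chr9:27791049-27791348 (plus strand), the Lsamp window chr16:39984114-39984413 (plus strand) and the Ntm window chr9:29412636-29412935 (minus strand). All 4 genes matched the promoter table, and Ntm and Lsamp have 2 start sites in it, of which the window with more CpGs is shown. The Ntm start lies inside the annotated span.
Opcml: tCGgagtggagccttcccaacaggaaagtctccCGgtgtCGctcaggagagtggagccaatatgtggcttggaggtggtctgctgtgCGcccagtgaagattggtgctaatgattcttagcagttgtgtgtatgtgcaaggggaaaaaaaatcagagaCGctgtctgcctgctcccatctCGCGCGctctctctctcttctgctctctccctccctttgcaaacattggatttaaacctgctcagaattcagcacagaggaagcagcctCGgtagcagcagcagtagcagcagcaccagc
Lsamp: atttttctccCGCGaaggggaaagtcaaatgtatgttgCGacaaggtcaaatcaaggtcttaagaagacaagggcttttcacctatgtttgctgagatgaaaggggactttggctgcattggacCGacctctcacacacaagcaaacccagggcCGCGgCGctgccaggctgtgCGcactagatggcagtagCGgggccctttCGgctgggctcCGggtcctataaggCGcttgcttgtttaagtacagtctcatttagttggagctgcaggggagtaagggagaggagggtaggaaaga
Ntm: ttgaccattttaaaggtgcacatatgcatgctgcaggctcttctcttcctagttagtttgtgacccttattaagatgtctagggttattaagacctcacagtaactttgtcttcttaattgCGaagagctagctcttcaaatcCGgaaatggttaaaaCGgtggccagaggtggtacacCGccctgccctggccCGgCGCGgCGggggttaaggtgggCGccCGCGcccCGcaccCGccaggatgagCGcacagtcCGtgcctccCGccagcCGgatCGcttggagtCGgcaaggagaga

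The Opcml window holds 9 CpGs, the Lsamp window 12 and the Ntm window 19, where the median of the 32851 windows in the table is 7. The Opcml window received 4 calls on 2 reads, both at 12 h, and 1 of these calls was undeaminated, at 67 bases before the start site. The Lsamp window received 12 calls on 2 reads, 8 at 6 h and 4 at 12 h, and 0 were undeaminated. The Ntm window received 17 calls on 1 read of an untreated library, all of them deaminated, and no call at 12 h. All of these calls fell on a CpG of the printed sequence. Negr1, whose window holds 29 CpGs, received no call there. The levels below therefore describe the long bodies of these genes and not their starts.

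At 12 h Opcml stood lowest of the 4 genes, and its 3 libraries were close together. It had 17 undeaminated calls of 119 in library A (14.3%, 95% Wilson interval 9.11 to 21.7%), 19 of 119 in library B (15.97%, 10.5 to 23.6%) and 5 of 34 in library C (14.7%, 6.45 to 30.1%). These levels lay closer together than their counting error, with SE clustered by read of 2.86, 3.57 and 7.35 points, so their closeness is no measure of precision. The expected levels were 22.8, 24.7 and 28.3%, so the deviations in A, B and C were -8.53, -8.71 and -13.6 points (mean -10.3 ± 2.89, SD, n = 3). All 3 libraries at 12 h lay below expectation in 35 of the 346 genes tested (10.1%). The mean level was 14.99% ± 0.875 (SD, n = 3) at 12 h, and at 0 h it was 0.775% ± 1.34 (SD, n = 3), from 1 undeaminated call of 91. The fitted deviation at 12 h against 0 h was -9.51 ± 2.53 points (SE, limma), which ranked 3 of 346 from the lowest, between -10.2 points for Cfap77 and -9.31 for Grin2b. This value comes from the contrast on which the gene was chosen, so it is a description and no test is given for it. In that contrast 1 of the 346 genes passed as below its libraries (0.289%) and 2 as above (0.578%; limma, Benjamini-Hochberg adjusted p under 0.05), 3 in all (0.867%), and 12 had an unadjusted p under 0.05 on the lower side (3.47%). Counted by read, 37 of 171 Opcml reads at 12 h carried an undeaminated call (21.6%), where reads with as many CpGs in the same libraries gave 31.5%.

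Ntm, the neighbour of Opcml in the genome, did not pass the test against its libraries. At 12 h it had 36 undeaminated calls of 141 in library A (25.5%, Wilson 19.1 to 33.3%), 28 of 148 in B (18.9%, 13.4 to 26.0%) and 15 of 57 in C (26.3%, 16.6 to 39.0%). The deviations in A, B and C were 2.05, -6.05 and -2.16 points, on both sides of expectation. The mean was 23.6% ± 4.06 (SD, n = 3) at 12 h, against 0 undeaminated calls of 123 at 0 h, a count that allows up to 2.44%. The fitted deviation was -0.940 ± 2.43 points (95% interval -6.40 to 4.52, limma adjusted p = 0.853), rank 133 of 346. It was -3.94 points without 12 h library A (limma adjusted p = 0.586), 2.04 without 12 h B (adjusted p = 0.830) and -4.28 with 1 call kept per read (adjusted p = 0.673). Of 187 reads at 12 h, 59 carried an undeaminated call (31.6%), where 35.1% was expected.

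Lsamp did not pass the test either. It had 29 undeaminated calls of 140 in 12 h library A (20.7%, Wilson 14.8 to 28.2%), 36 of 135 in B (26.7%, 19.9 to 34.7%) and 8 of 43 in C (18.6%, 9.74 to 32.6%). The deviations in A, B and C were -2.84, 2.13 and -9.69 points, again on both sides. The mean was 22.0% ± 4.18 (SD, n = 3) at 12 h, against 0 of 104 at 0 h, a count that allows up to 2.88%. The fitted deviation was -0.537 ± 2.31 points (95% interval -5.72 to 4.65, limma adjusted p = 0.922), rank 142 of 346. It was 0.507 points without 12 h library A, -3.27 without 12 h B and 0.605 without 12 h C. Of 198 reads at 12 h, 56 carried an undeaminated call (28.3%), where 31.9% was expected. The protein-coding model Gm52229 lies inside the Lsamp span and had 10 undeaminated calls of 27 at 12 h (37.0%).

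Negr1 had the highest level of the 4 and the widest spread. It had 17 undeaminated calls of 76 in 12 h library A (22.4%, Wilson 14.5 to 32.9%), 24 of 55 in B (43.6%, 31.4 to 56.7%) and 4 of 14 in C (28.6%, 11.7 to 54.6%). Library B deviated by 18.9 points, whereas A and C deviated by -1.49 and -0.195. The mean was 31.5% ± 10.9 (SD, n = 3) at 12 h, against 0 of 39 at 0 h, a count that allows up to 7.69%. With the minimum lowered to 5 calls per library, 1027 genes could be fitted, and the Negr1 deviation was 7.47 ± 4.86 points (95% interval -3.62 to 18.6, limma adjusted p = 0.627). Without 12 h library B the value was -0.181 points. Of 88 reads at 12 h, 34 carried an undeaminated call (38.6%), where 32.4% was expected.

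The order of the 12 h means was thus Opcml, Lsamp, Ntm and Negr1 from low to high. The libraries ran from 14.3 to 15.97% in Opcml, 18.6 to 26.7% in Lsamp, 18.9 to 26.3% in Ntm and 22.4 to 43.6% in Negr1. The ranges of Lsamp, Ntm and Negr1 overlapped one another, and that of Opcml lay below them, which describes the values it was chosen on. The fitted 95% intervals overlapped, with -15.2 to -3.82 points for Opcml, -6.40 to 4.52 for Ntm, -5.72 to 4.65 for Lsamp and -3.62 to 18.6 for Negr1. The Opcml interval takes no account of the choice of the gene on this contrast. Since Opcml was chosen for its low value, the difference between it and its relatives was not tested. With the 4 genes summed, 99 of 476 calls were undeaminated in 12 h library A (20.8%), 107 of 457 in B (23.4%) and 32 of 148 in C (21.6%), with deviations of -2.60, -1.32 and -6.80 points. The mean deviation of the sum was -3.57 ± 2.86 points (SD, n = 3). With Opcml left out, the other three summed to 22.97, 26.0 and 23.7% in A, B and C, and the mean deviation was -1.37 ± 3.09 points, with 1 of the 3 libraries above expectation, while summed over their 809 calls it was -0.408 points. Over the 346 genes tested the median fitted deviation was 0.648 points, and 156 (45.1%) lay below 0.

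**Figure D1:**
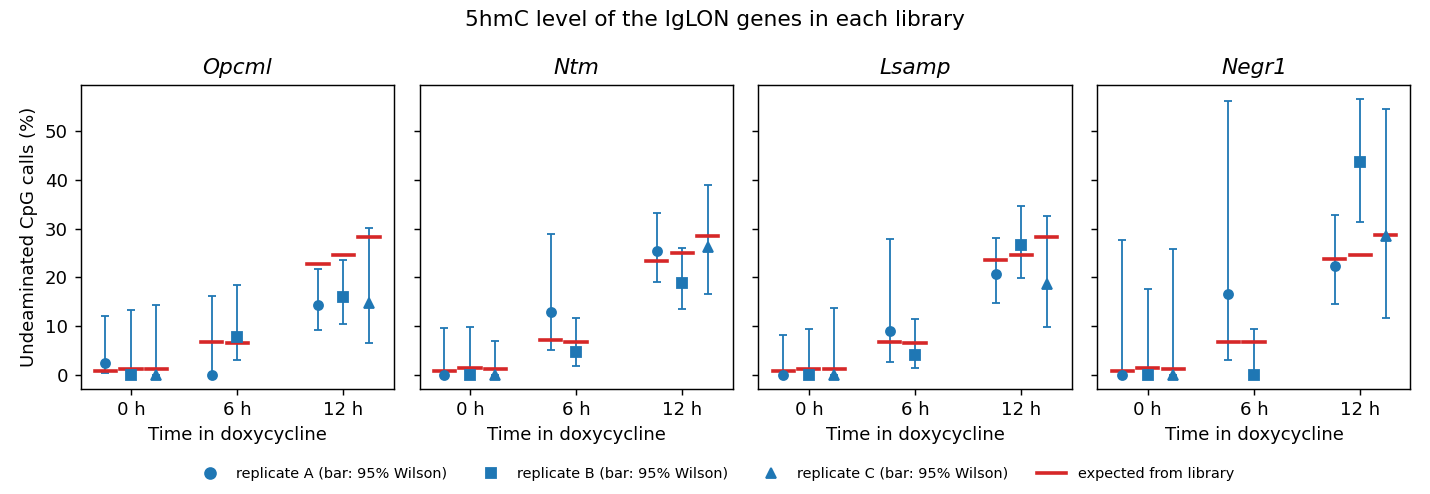
Undeaminated CpG calls in percent (vertical axis) in each library at 0, 6 and 12 h of doxycycline, 1 panel for each gene. Points are libraries with 95% Wilson intervals, and red lines are the level expected from the library at the same number of CpGs per read. At 12 h the 3 Opcml points lie between 14.3 and 15.97%, all under their red lines, while points of the other genes fall on both sides.

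**Figure D2:**
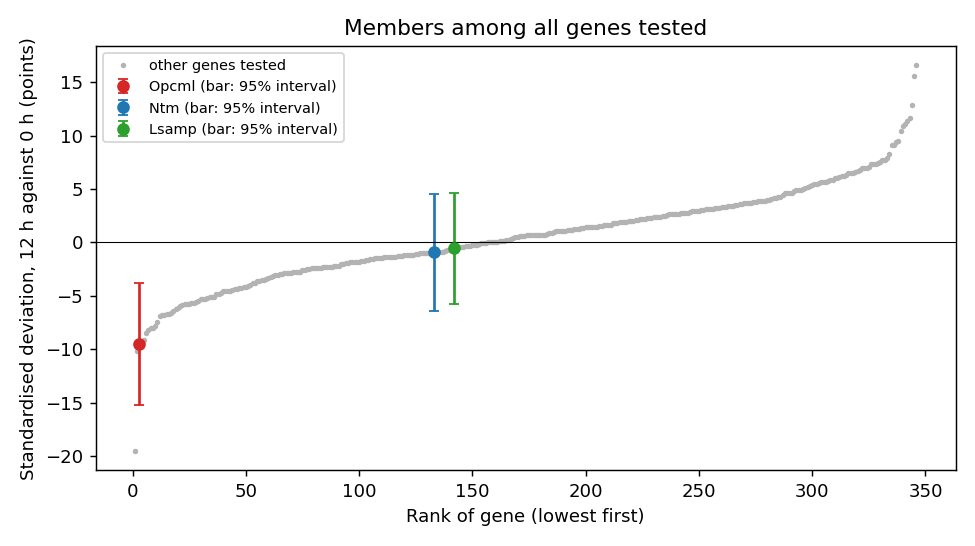
Fitted deviation from the expected level, 12 h against 0 h, in percentage points (vertical axis) for the 346 genes tested, ranked from the lowest (horizontal axis). Coloured points are members with 95% intervals from limma. Opcml stands at rank 3 in the contrast it was chosen on, so its interval is a description and no test. Ntm and Lsamp stand at ranks 133 and 142 with intervals across 0.

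As gains in the level itself, 12 h against 0 h, Opcml had 13.7 ± 2.57 points (SE), Ntm 22.8 ± 2.51 and Lsamp 23.0 ± 2.36, where the median over the 346 genes was 23.3 points. By this measure 342 of the 346 genes rose (98.8%), among them Ntm and Lsamp (limma adjusted p = 8.68e-06 and 5.82e-06). All genes share the rise of their libraries, so these p-values are not independent and may be too small by a wide margin. At 6 h against 0 h the gains were 4.35 ± 2.87 points for Opcml, 6.86 ± 2.54 for Ntm and 5.31 ± 2.49 for Lsamp (limma adjusted p = 0.302, 0.108 and 0.175), and 17 of the 346 genes passed (4.91%). The Opcml gain rests on untreated libraries that were also used in choosing the gene.

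At 6 h none of the 4 genes differed from its libraries by the test, with counts of 6 to 84 calls a library. Opcml had 0 undeaminated calls of 20 in 6 h library A, a count that allows up to 15%, and 4 of 51 in library B (7.84%), against 1 of 91 at 0 h. Ntm had 4 of 31 in A (12.9%) and 4 of 84 in B (4.76%), Lsamp had 2 of 22 (9.09%) and 3 of 72 (4.17%), and Negr1 had 1 of 6 (16.7%) and 0 of 37. In each gene one 6 h library lay above the expected level and the other below it. The fitted deviations at 6 h against 0 h were -1.24 ± 2.83 points for Opcml (95% interval -7.60 to 5.11), 1.14 ± 2.46 for Ntm (-4.38 to 6.65) and -0.250 ± 2.43 for Lsamp (-5.71 to 5.21). Their limma adjusted p-values were 0.941, 0.941 and 0.955. The Opcml test is not independent of the choice of the gene, since both used the untreated libraries. With the lower minimum Negr1 had -3.22 ± 5.12 points (limma adjusted p = 0.916). In this contrast 0 of the 346 genes passed in either direction by limma (0%), with 21 at an unadjusted p under 0.05 (6.07%), 7 of them below (2.02%). The 71 Opcml calls at 6 h gave 5.63% with a Wilson interval of 2.21 to 13.6%, around an expected level of 6.60%, so a difference as large in proportion as that at 12 h was not detectable at this depth. Between 6 h and 12 h the fitted deviation was -8.27 ± 3.56 points for Opcml, -2.08 ± 3.21 for Ntm (limma adjusted p = 0.883) and -0.286 ± 3.11 for Lsamp (adjusted p = 0.977), with 0 of the 346 genes past the threshold and 35 at an unadjusted p under 0.05 (10.1%). Negr1 had 10.7 ± 6.42 points (limma adjusted p = 0.617) with the lower minimum. The Opcml value shares its 12 h libraries with the contrast it was chosen on.

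The Opcml calls at 12 h were also split by place. These splits, and those by kind of read, divide the calls on which the gene was chosen, so counts of divisions below expectation are a description only. The span was divided into 5 equal stretches from the 5′ to the 3′ end, which had 12 undeaminated calls of 76, 8 of 50, 4 of 50, 10 of 44 and 7 of 52. All 5 lay below expectation, the nearest being stretch 4 (22.7%, deviation -2.22 points) and the furthest stretch 3 (deviation -15.7 points). Outside the gene the level was higher, though only upstream did it stand well above expectation. The 500 kb upstream had 56 of 175 calls undeaminated (32.0%, Wilson 25.5 to 39.2%), with 27.8, 34.9 and 31.6% in libraries A, B and C. Its deviation from expectation was 7.05 points. The 500 kb downstream, most of which is Ntm, had 36 of 141 (25.5%, 19.1 to 33.3%). There the deviation was 0.794 points in sum and -1.76 in 12 h library B. In each 12 h library both flanks were above the level inside Opcml. The stretch between Opcml and Ntm had 3 of 13.

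In the relatives the stretches lay on both sides of expectation. In Lsamp stretches 1 and 2 at the 5′ end had 9 undeaminated calls of 64 (14.1%) and 6 of 40, while stretches 3 and 5 had 18 of 54 (33.3%) and 27 of 92 (29.3%). In Ntm they ran from 13 of 77 (16.9%) in stretch 3 to 21 of 71 (29.6%) in stretch 4. In Negr1 stretch 2 had 1 of 22 (4.55%), and stretches 3 and 4 had 11 of 27 (40.7%) and 14 of 34 (41.2%). Stretches below expectation numbered 5 of 5 in Opcml, 3 of 5 in Ntm, 3 of 5 in Lsamp and 1 of 5 in Negr1. A stretch held 14 to 56 reads, and differences between stretches were not tested. The flanks of Lsamp had 8 of 43 (18.6%) upstream and 25 of 122 (20.5%) downstream, with deviations of -6.21 and -4.60 points. Those of Negr1 had 12 of 70 (17.1%) and 37 of 147 (25.2%), with deviations of -7.24 and 2.27 points. Upstream of Ntm there were 39 of 155 (25.2%, deviation 0.219 points).

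**Figure D3:**
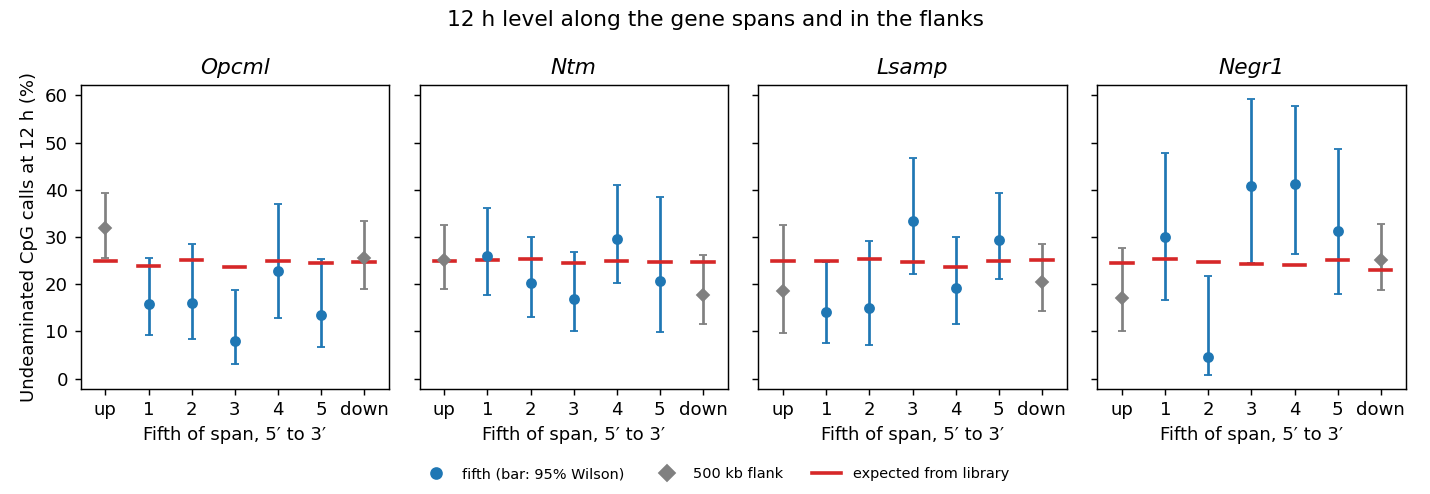
Undeaminated CpG calls at 12 h in percent (vertical axis), summed over the 3 libraries, in 5 equal stretches of each gene span from the 5′ to the 3′ end (blue) and in the 500 kb on either side (grey), with 95% Wilson intervals and the expected level in red. All 5 stretches of Opcml lie under their red lines and its flanks above them, the downstream flank by 0.794 points. Stretches of the other genes lie on both sides.

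The Opcml level lay below expectation at 12 h in 5 of the 6 classes of CpGs per read that held calls. Reads with a single CpG had 15 undeaminated calls of 112 (13.4%, where 24.4% was expected), reads with 2 CpGs 12 of 76 (15.8%, expected 25.1%) and reads with 3 CpGs 8 of 39 (20.5%, expected 25.7%). Reads with 6 to 7 CpGs had 3 of 13 (23.1%), which matched expectation to within 0.0118 points, on 2 reads. With the strand of a read inferred from the order of its calls, top-strand reads had 18 of 108 (16.7%) and bottom-strand reads 8 of 52 (15.4%). The libraries were sequenced in 3 runs, and Opcml had 2 of 16 calls undeaminated (12.5%), 20 of 130 (15.4%) and 19 of 126 (15.1%) in them, each below expectation. Within 1 kb of gene ends there were 3 of 21 (14.3%, expected 20.5%), on only 3 reads, and elsewhere 38 of 251 (15.1%, expected 24.6%). In the same runs Ntm had 3 of 13 (23.1%), 50 of 190 (26.3%) and 26 of 143 (18.2%), Lsamp 1 of 13 (7.69%), 38 of 154 (24.7%) and 34 of 151 (22.5%), and Negr1 1 of 14 (7.14%), 28 of 75 (37.3%) and 16 of 56 (28.6%). Lsamp also lay below expectation in 3 of 3 runs, Ntm in 2 of 3 and Negr1 in 1 of 3. Of the 3 strand groups (top, bottom and not inferred), 3 lay below in Opcml and in Ntm, 2 in Lsamp and 0 in Negr1. Of the classes of CpGs per read, 4 of 6 lay below in Ntm, 3 of 6 in Lsamp and 1 of 5 in Negr1. In Lsamp, reads with a single CpG were low (21 of 127, 16.5%) and those with 4 to 5 CpGs high (18 of 52, 34.6%), on 13 reads.

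Iglon5, a short gene and the remaining member of the family, held 10 calls in all, with 2 of 7 undeaminated at 12 h, too few for a level. Of a list of 35 neuronal adhesion genes of the immunoglobulin superfamily, 10 were tested, and 0 passed above and 0 below their libraries at 12 h against 0 h (0 at an unadjusted p under 0.05). Over the 346 genes tested 3 passed (0.867%), and 43 had an unadjusted limma p under 0.05 (12.4%), so 0 of 10 says little. The 10 had a median deviation of -0.716 points, beside 0.648 over all genes tested. They ran from -5.13 ± 3.13 points for Nfasc, a neurofascin of the axon initial segment and nodes, to 3.55 ± 1.67 for Sdk1. The 3 with the most calls were Sdk1 (142 of 489 calls undeaminated at 12 h, 29.0%) and Sdk2 (95 of 346, 27.5%), the sidekick adhesion proteins of synaptic layers, and Dscaml1 (65 of 272, 23.9%), a relative of the Down syndrome cell adhesion molecule. A list of 18 genes for neuronal surface proteins held by the same kind of anchor as the IgLON proteins says as little. Of these, 3 were tested and 0 passed (0 at an unadjusted p under 0.05). The 3 tested were the cadherin Cdh13 with 219 of 933 calls undeaminated at 12 h (23.5%) and the glypicans Gpc5 with 75 of 300 and Gpc6 with 104 of 427 (24.4%). The untested genes of both lists had fewer calls in at least 1 library. Some had low levels at 12 h and others high ones, none of them set singly against an expected level. Named after their values were seen, the low ones included Kirrel with 9 of 82 (10.98%), Cadm2 with 10 of 85 (11.8%), Gpc1 with 8 of 63 (12.7%), Ntng1 with 9 of 62 (14.5%) and Cntn4 with 14 of 94 (14.9%). The high ones, named in the same way, included Igsf9b with 31 of 66 (46.97%), Ncam2 with 13 of 39 (33.3%), Lingo2 with 36 of 117 (30.8%) and Cntn2 with 21 of 70 (30%). Summed over all their genes at 12 h, the adhesion list had 23.4% and the anchor list 22.99%, where whole libraries had 22.3 to 26.8%.

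Both lists were drawn up with earlier results of these data known. By the root mean square difference of their deviations over the 5 doxycycline libraries, the genes most like the 4 members summed were Cdh13 (1.56 points), Dpp10 (1.79), Cdk8 (1.86), Ptprd (1.92) and Nrg1 (2.07). Their own fitted deviations at 12 h against 0 h lay between -4.51 ± 2.87 points (Dpp10) and -1.14 ± 2.34 (Nrg1). The measure compares deviations and not levels. Cdk8 had a mean level of 10.5% at 12 h (20 of 194 calls undeaminated), where the 4 members summed had 21.9%.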

How the data were processed

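The labels' protocols describe 10 ng of DNA cut to about 300 bp, glucosylated and deaminated by an APOBEC enzyme, and 150 bp sequencing chemistry. Read names show 3 runs. The deposited files hold a call letter, undeaminated or deaminated, for each CpG and read, made by the authors with Bismark 0.22.3 per the file headers. The submitters' processing notes also name Trim Galore and the build GRCm38. For alignment settings and duplicate removal, the sources used here give nothing.

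Gene spans came from a GRCm38.p6 table, matched by symbol. The expected level was taken per library in 7 classes of CpGs per read (1, 2, 3, 4-5, 6-7, 8-10, 11 or more). Deviations were fitted with limma 3.58.1 in R 4.3.3 over all 8 libraries, with 3 groups, weights of calls over the binomial variance, Benjamini-Hochberg adjustment over the 346 genes with no library under 10 calls, and a threshold of 0.05. In simulated data for 12 h against 0 h, 146 of these 346 genes were unchanged and the rest shifted by 10 or 20 points. Of the 49 lowered by 10 points 87.8% were called, of the 52 lowered by 20 points 100%, and of the unchanged 2.05%. Whether such shares hold for the real libraries, in which 3 of the 346 genes passed, was not tested.

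Wilson intervals (95%) and floors (3 counts) cover counting error only. Calls on 1 read are not independent, and for Opcml at 12 h the SE clustered by read was 2.21 points. Groups and replicate letters came from the titles. The members and lists were chosen with earlier results of these data known. Named are the members, Iglon5, the 3 genes with the most calls of each list, the 5 genes nearest in pattern and protein-coding genes overlapping a member. Nfasc, Cfap77 and Grin2b were named after their values were seen, as the list's lowest gene and the neighbours of Opcml in rank. So were the untested list genes Kirrel, Cadm2, Gpc1, Ntng1, Cntn4, Igsf9b, Ncam2, Lingo2 and Cntn2.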

Additional observations from a re-analysis of the deposited data

How the results depend on the processing

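The Opcml deviation was -7.95 to -11.7 points under every alternative on the scale of points, and -7.95 to -10.1 when each library was left out. Its lowest value was with 1 call per read and its highest without untreated library A. Ntm and Lsamp passed the threshold in none of their 23 and 22 fits (limma and the quasi-binomial test, adjusted p 0.586 to 0.980 and 0.637 to 0.982). Their signs changed without the correction for CpGs per read (0.519 and 0.760 points), and with each library left out they ran from -3.94 to 2.04 (Ntm) and from -3.27 to 0.605 (Lsamp). Negr1 ran from -0.181 to 16.5, the extremes being without 12 h library B and without 12 h A. The sum of the 4 members at 12 h was -6.90 points with 1 call per read and ran from -4.70 to -1.96 with each library left out, and at 6 h it was 1.98 or -2.12 from a single library.

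Counts of genes past the threshold moved by more than 1.5 times in many alternatives. At 12 h against 0 h, genes above numbered 0 to 2 with a library left out, 4 with at least 1 call in every library, and 0 on the logit scale, by either quasi-binomial test or with 1 call per read. Genes below numbered 0 to 4 with a library left out, 5 without the correction, 4 and 8 with minima of 5 calls and 1 call, 2 with the replicate block, and 0 without weights, on the logit scale, by either quasi-binomial test, with 1 call per read or without high-copy windows. At 6 h against 0 h 1 gene passed above without 6 h library A and 1 below with the replicate block. At 12 h against 6 h 5 passed above on the logit scale, and 1 below without the correction, with minima of 5, 20 or 1 calls, with the replicate block or without gene ends. Gains at 12 h against 0 h numbered 337 to 532 with a library left out, 965, 86 and 3280 with minima of 5, 20 and 1 calls, and 80 with 1 call per read, as more or fewer genes were tested. Gains at 6 h against 0 h numbered 17, and 0 to 18 with a library left out, 1 and 3 with minima of 5 calls and 1 call, 11 with the replicate block, 0 without weights or with 1 call per read, and 1 with possible duplicates removed or without gene ends; the cause was not tested.

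Libraries of the same replicate letter correlated at -0.146 to 0.0161 over 346 genes in their deviations from the group means. Those of different letters correlated at -0.0523 to 0.137. Deviations from a mean of so few libraries depend on each other, so these values do not show whether a letter marks shared cultures. With the letter as a replicate block the deviations were -9.52 points for Opcml, -0.718 for Ntm and -0.619 for Lsamp. The quasi-binomial contrast could not be fitted for Ntm and Lsamp, with 0 undeaminated calls at 0 h, so the 12 h libraries were also fitted alone, an alternative added after seeing the data. Lsamp had too few calls to be tested with 1 call per read. Depth limits single genes to about the median SE of 2.96 points.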
